A study of Mus musculus with 6 samples.

Results

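The insulin-like growth factor (IGF) genes described here are the growth factor Igf1, the receptors Igf1r and Igf2r, and the binding proteins Igfbp2, Igfbp3, Igfbp4, Igfbp5, Igfbp6 and Igfbp7. They were taken by gene name from the array's annotation, control spots left out. All 9 genes were found, with 15 of the 55681 probes of the array. Igf1 has 5 probes, Igfbp2 and Igfbp3 have 2 each, and each other gene has 1. The 6 samples, 3 of A+/G+ and 3 of A-/G+, hold magnetically sorted cells of neonatal mouse cerebellum. A+/G+ cells carry the antigen of the anti-ACSA-2 antibody, a form of the sodium pump subunit encoded by Atp1b2, together with the glutamate transporter GLAST. A-/G+ cells carry GLAST without ACSA-2. All samples came from wild-type CD1 mice of postnatal days 1 to 3, per the labels, with 50000 cells per sample, and the study's methods state pooled cerebella of either sex. A+/G+ cells were enriched with anti-ACSA-2 beads alone. A-/G+ cells were first depleted of cells with L1CAM, ACSA-2, CD45, PSA-NCAM or Ter119 and then selected with anti-GLAST. Removal of neurons, leukocytes and red cells was therefore a step of the A-/G+ sort only, and neither fraction is a pure cell type.

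IGF1 and IGF2 are small secreted proteins related to insulin that promote growth and survival of cells. Both bind IGF1R, a receptor tyrosine kinase that signals through PI3K and AKT and through the RAS and MAPK cascade, whereas IGF2R takes up IGF2 for breakdown in lysosomes and also carries lysosomal enzymes. The binding proteins hold the ligands in the extracellular space, where they can extend their lifetime, keep them from the receptor or bring them to it, and proteases that cut the binding proteins set the ligands free. In the developing cerebellum, IGF1 is known for its effects on granule neuron precursors and Purkinje cells.

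Of the 9 genes, Igf1, Igfbp2, Igfbp3 and Igfbp4 were higher in A+/G+ and 0 were higher in A-/G+ in limma with Benjamini-Hochberg adjustment over all probes, with an adjusted p of at most 0.05 as the limit. The share of 44.4% compares with 7.48% of all 24082 gene symbols on the array that were higher in A+/G+ and 5.12% that were higher in A-/G+, each read from its brightest probe. Over all 55681 probes, 9.29% passed the limit in either direction. Igf1r, Igf2r, Igfbp5, Igfbp6 and Igfbp7 did not pass. At an unadjusted p below 0.05, 6 of the 9 genes favored A+/G+ and 0 favored A-/G+ in limma, where 16.3% and 14% of all gene symbols did so. The methods' t-test also gave 6 and 0, against 14.3% and 14% of all gene symbols. The signals did not overlap between the fractions for 6 of the 9 genes (66.7%), each with A+/G+ above, compared with 19.1% of all gene symbols. The median difference over the 9 genes was 1.03 on the log2 scale, A+/G+ minus A-/G+, and that over all gene symbols was -0.03. The 9 genes were chosen with earlier results of these data known, so these comparisons describe them and are not a test of enrichment. The cells were measured in bulk, so more cells of a type and more RNA per cell cannot be told apart.

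The 75th percentile of the spot intensities was between 332 and 334 on the A+/G+ arrays and between 56.6 and 251 on the A-/G+ arrays, and 26469 to 26653 probes were detected in A+/G+ against 18331 to 24726 in A-/G+, where detected means marked by the scanner software as well above background. Slide 1 held the A+/G+ arrays and slide 2 the A-/G+ arrays, and slide and fraction cannot be told apart. Atp1b2 differed by 2.16 on the log2 scale with A+/G+ above (adjusted p = 0.00725, limma). Slc1a3, the gene of GLAST, differed by -1.19 and did not pass (adjusted p = 0.0733, limma), though every A-/G+ array lay above every A+/G+ array. Limma gave 2589 probes in favor of A+/G+ and 2583 in favor of A-/G+, and a shift of the arrays to a common 75th percentile instead of quantile normalization split them 1227 and 2658. That shift moved the median difference of all gene symbols from -0.03 to -0.40, and the values below are to be read against these medians. With 3 arrays per fraction an exact permutation test cannot give a p below 0.1 (two-sided), and the number of arrays limits the precision. Signals below are log2 intensities after quantile normalization, given for replicates 1, 2 and 3, and one probe's level is not set against another's.

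The first 30 of the 60 bases of 9 probes are shown because the results for Igf1, Igfbp2, Igfbp3 and Igfbp4 rest on them and because probes of 1 gene gave unequal results. Coordinates are on mm9, taken from the array's annotation. Capitals mark bases that are shared by the Igf1 probes ranked 3 and 4 by brightness, which overlap by 40 bases and are not independent.
Igf1 probe 1, the brightest, chr10:87399581-87399640, plus strand: ctcctgattgtatttgaagtggttattcaa
Igf1 probe 2, chr10:87378456-87378515, plus strand: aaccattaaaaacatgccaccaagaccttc
Igf1 probe 3, chr10:87393581-87393640, plus strand: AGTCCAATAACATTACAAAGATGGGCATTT
Igf1 probe 4, chr10:87393561-87393620, plus strand: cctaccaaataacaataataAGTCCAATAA
Brighter Igfbp2 probe, chr1:72898677-72898736, plus strand: catctcttctacaacgagcagcaggagact
Dimmer Igfbp2 probe, chr1:72898813-72898872, plus strand: aggagttcccagttttgacacatgtattta
Brighter Igfbp3 probe, chr11:7106594-7106653, minus strand: gcagttttccaaaaacacagatttcttttc
Dimmer Igfbp3 probe, chr11:7107949-7108008, minus strand: ggagaacctggcatatttggtttctgaatt
Igfbp4 probe, chr11:98913334-98913393, plus strand: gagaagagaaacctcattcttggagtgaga
Exon and UTR were not assigned to these positions here.

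Igf1, the growth factor, was higher in A+/G+ by its brightest probe. Its signal was 7.32, 6.70 and 7.03 on the A+/G+ arrays and 3.73, 2.99 and 4.48 on the A-/G+ arrays. The lowest A+/G+ array lay 2.22 above the highest A-/G+ array. The means were 7.02 ± 0.31 and 3.73 ± 0.74 (SD, n = 3 each), which is a log2 difference of 3.28 (standard error 0.42, 95% interval 2.20 to 4.36, adjusted p = 0.0171, limma), a 9.73-fold difference. This probe was detected on all 3 A+/G+ arrays but on only 1 A-/G+ array, replicate 3, so the size of the difference rests on A-/G+ signals near background. With normexp background correction the difference was 1.28 (adjusted p = 0.00273, limma). The adjusted p rose above the limit when any of 4 arrays was left out, to 0.0673, 0.0646 and 0.0758 for A+/G+ replicates 1, 2 and 3 and to 0.0546 for A-/G+ replicate 1 (limma).

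The other 4 Igf1 probes were dimmer and did not all show the same. Probe 3 read 6.005, 5.46 and 5.67 in A+/G+ and 3.97, 3.82 and 4.72 in A-/G+, a difference of 1.54 (adjusted p = 0.0411, limma). Probe 4, which shares most of its bases with probe 3, differed by 1.58 and did not pass (adjusted p = 0.13, limma). Probe 5 differed by 1.74 (adjusted p = 0.0392, limma), and like probe 4 it was detected on no A-/G+ array. The fractions of these 3 probes did not overlap. Probe 2, the only one annotated to another Igf1 transcript, read 5.32, 5.27 and 5.21 in A+/G+ and 5.95, 5.17 and 5.11 in A-/G+. Its fractions overlapped, and its difference of -0.14 had a 95% interval from -0.79 to 0.50 (adjusted p = 0.74, limma). The mean of all 5 probes differed by 1.60 with A+/G+ above (adjusted p = 0.0314, limma). The plot of all probe differences shows Igf1 probe 2 near 0 beside the other 4.

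**Figure D1:**
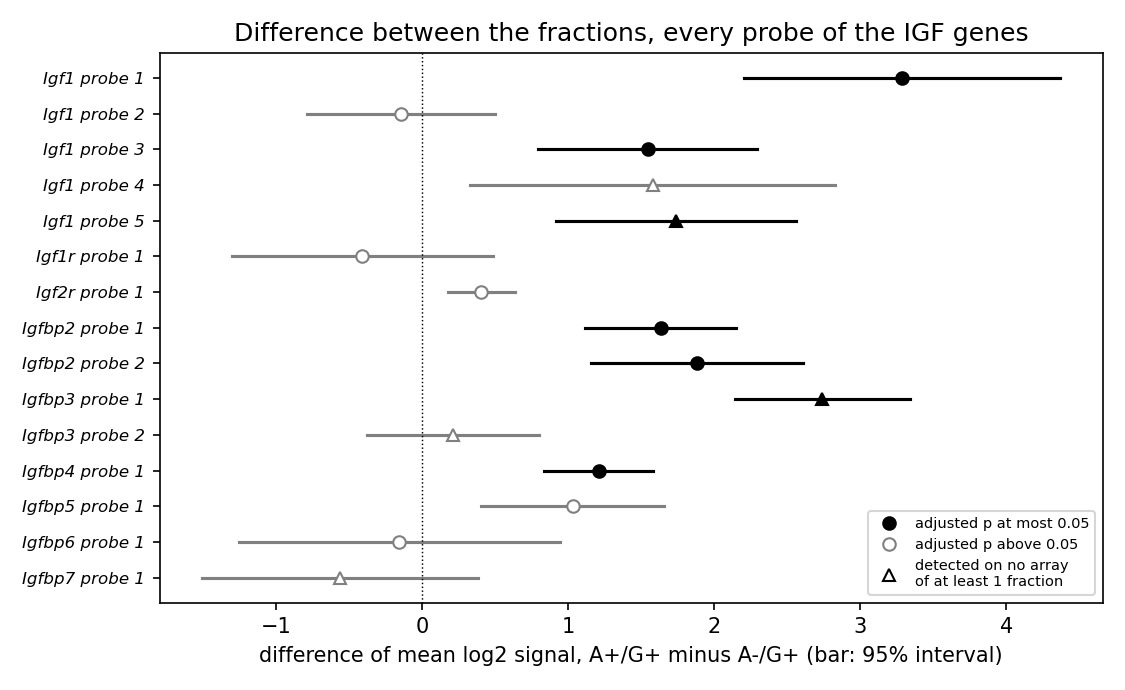
Difference of mean log2 signal, A+/G+ minus A-/G+ (x axis), for each of the 15 probes, numbered within a gene from the brightest. Bars are 95% intervals from limma, filled points have an adjusted p of at most 0.05, and the 7 filled points all lie above 0, with Igf1 probe 1 at 3.28. Triangles mark probes that were detected on no array of at least 1 fraction, such as Igfbp3 probe 1.

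Neither receptor passed the test. Igf1r, the receptor for both ligands, read 9.42, 10.58 and 10.47 in A+/G+ and 10.51, 10.76 and 10.44 in A-/G+. Its probe, at chr7:75378461-75378520 of mm9, was detected on all 6 arrays. Replicate 1 of A+/G+ was the lowest array, and the fractions overlapped. The difference was -0.41 with a 95% interval from -1.30 to 0.48 (adjusted p = 0.549, limma). When that lowest array was left out the difference was -0.04. Summed signals of the Purkinje cell markers (13965 against 5252 and 7087) and of the microglia markers (2554 against 1625 and 1300) were highest on that same array within A+/G+. So were those of choroid plexus (39757 against 29711 and 25248), erythroid (23650 against 21531 and 13074) and granule neuron markers (4864.5 against 4668 and 3328). The part of these cells in the Igf1r value was not tested. Summed signals, here and below, add the normalized signals on the linear scale, so the brightest markers of a list weigh most.

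Igf2r, which clears IGF2, was measured by 10 spots of 1 probe and read 9.54, 9.66 and 9.54 in A+/G+ and 9.17, 9.31 and 9.05 in A-/G+. The fractions did not overlap, by a small margin. The difference was 0.41 (standard error 0.09, 95% interval 0.18 to 0.63) with an adjusted p of 0.0582 in limma, just above the limit. Of 16 alternatives it passed in 2, normexp background correction (adjusted p = 0.0313, limma) and a test of only the probes detected on all 6 arrays (adjusted p = 0.0371, limma). It did not pass in the other 14, where the adjusted p reached 0.188 with 1 array left out.

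Igfbp2, a binding protein expressed in fetal and neonatal brain, was higher in A+/G+ by both probes. The brighter probe read 13.28, 13.54 and 13.30 in A+/G+ and 11.71, 11.41 and 12.10 in A-/G+. The dimmer probe, which lies further along chromosome 1 in the array's annotation, read 12.89, 12.96 and 12.81 in A+/G+ and 10.48, 10.998 and 11.54 in A-/G+. Neither probe overlapped between the fractions, and both were detected on all 6 arrays. The brighter probe differed by 1.63 (standard error 0.20, 95% interval 1.11 to 2.15, adjusted p = 0.0157, limma), or 3.1-fold. The dimmer one differed by 1.88 (adjusted p = 0.0242, limma), or 3.68-fold. Leaving out A+/G+ replicate 1, 2 or 3 raised the adjusted p of the brighter probe to 0.0623, 0.0701 and 0.0701 (limma), while its difference stayed between 1.46 and 1.79 with each array left out in turn.

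Igfbp3, the main carrier of the ligands in blood, was dim in both fractions. Its brighter probe read 4.70, 5.15 and 4.29 in A+/G+ and 1.90, 1.93 and 2.08 in A-/G+. It was detected on all 3 A+/G+ arrays and on none of the A-/G+ arrays. The measured means were 4.71 ± 0.43 and 1.97 ± 0.10 (SD, n = 3 each), with a difference of 2.74 (standard error 0.23, adjusted p = 0.00747, limma). No fold is given, because the dimmest detected signals on the A-/G+ arrays (4.03 to 5.72) reach the level of this probe in A+/G+. The difference was 1.78 after the 75th percentile shift (adjusted p = 0.0501, limma), and 0.61 with normexp background correction (adjusted p = 0.0105, limma). Without each array in turn the adjusted p stayed between 0.0136 and 0.0422. The dimmer Igfbp3 probe, designed on another transcript, was detected on no array and differed by 0.21 (adjusted p = 0.61, limma).

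Igfbp4, a binding protein that is cut by the protease encoded by Pappa, read 7.39, 7.64 and 7.45 in A+/G+ and 6.22, 6.09 and 6.54 in A-/G+. The fractions did not overlap, and the probe was detected on all 6 arrays. The difference was 1.21 (standard error 0.15, 95% interval 0.83 to 1.58, adjusted p = 0.0152, limma), or 2.31-fold. The adjusted p was 0.0574, 0.0668 and 0.0701 (limma) in the fits that left out A+/G+ replicate 1, 2 or 3. With normexp background correction the difference was 0.76 (adjusted p = 0.0034, limma).

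Igfbp5, which binds the ligands in the matrix around cells, lies next to Igfbp2 on chromosome 1 in RefSeq's gene order. It read 10.85, 10.93 and 10.84 in A+/G+ and 9.66, 9.51 and 10.37 in A-/G+. The fractions did not overlap, but replicate 3 of A-/G+ stood well above the other two. The difference was 1.03 (standard error 0.24, 95% interval 0.40 to 1.66) and did not pass (adjusted p = 0.0703, limma). Without that array it was 1.29 (adjusted p = 0.00667, limma). Of 16 alternatives, that one included, it passed in 5, the others being normexp background correction (0.0228), limma's trend and robust variance (0.0495), and the tests of only probes detected on all arrays of 1 fraction (0.0291) or on all 6 (0.0168). It did not pass in the other 11, among them the methods' t-test (adjusted p = 0.128) and the fits without any other array, where the adjusted p reached 0.217.

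Igfbp6, which prefers IGF2 over IGF1, read 8.15, 8.83 and 7.89 in A+/G+ and 8.81, 8.84 and 7.69 in A-/G+. The fractions overlapped widely, and the difference of -0.16 had a 95% interval from -1.26 to 0.94 (adjusted p = 0.843, limma). Igfbp7, a relative with low affinity for the ligands, was detected on none of the 6 arrays. Its probe read 2.54, 1.97 and 1.98 in A+/G+ and 2.04, 3.26 and 2.86 in A-/G+ (adjusted p = 0.461, limma), which are background signals, so no level is given. No member probe was saturated.

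**Figure D2:**
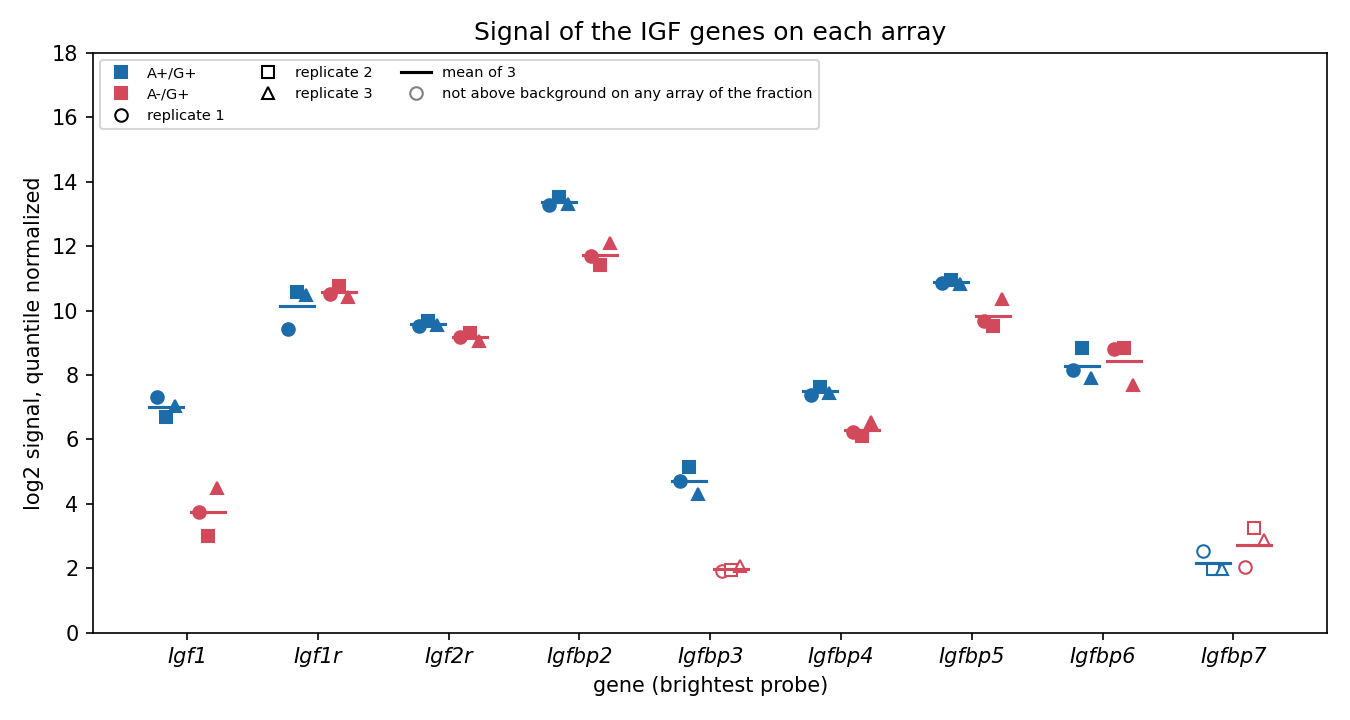
Log2 signal after quantile normalization (y axis) of the brightest probe of each of the 9 genes on every array. A+/G+ arrays are blue, A-/G+ arrays red, marker shapes are replicates 1 to 3, lines are means of 3 arrays, and open points mark a fraction in which no array detected the probe. For Igfbp2 the A+/G+ arrays lie between 13.28 and 13.54 and the A-/G+ arrays between 11.41 and 12.10, while for Igf1r and Igfbp6 the fractions overlap.

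Within A-/G+, the brightest probes of Igf1, Igfbp2, Igfbp4 and Igfbp5 were highest in replicate 3 and lowest in replicate 2. Other probes did not all follow this order, as the dimmer Igfbp2 probe and Igf1 probe 4 were lowest in replicate 1 and Igf1 probe 2 was highest there. In A-/G+ the brightest Igf1 probe was detected only in replicate 3, and Igf1 probe 4 on no array. Their orders among arrays without detection are orders of background signals. Replicate 3 was also the A-/G+ array with the highest summed signal of 12 endothelial markers, 16974 against 5861 and 6112 in replicates 1 and 2, close to the A+/G+ range of 17592 to 24788. Erythroid sums (5428, 3444 and 11060 in replicates 1, 2 and 3), granule neuron sums (3514, 3121 and 5755) and oligodendrocyte precursor sums (3221, 3458 and 4986) were also highest there. The erythroid and granule neuron sums were lowest in replicate 2, like the brightest probes named above, and the endothelial sums in replicate 1. Replicate 3 was also the brightest A-/G+ array, with a 75th percentile of 251 against 56.6 and 113. All 12 endothelial markers had a higher mean in A+/G+ and 2 of them passed. Among the endothelial markers, Pecam1 was detected on 1 A-/G+ array, and Cdh5 and Cldn5 on all 3. The part of these cells, or of array brightness, in the values of the IGF genes was not tested.

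Markers of other cells also moved with the fractions. For meningeal fibroblasts, 12 of 12 markers had a higher mean in A+/G+ and 6 passed, and their summed signal was 94178 to 115380 in A+/G+ against 15554 to 44732 in A-/G+. Col1a1, Col1a2 and Dcn, the first 3 of that list, were detected on every array. For pericytes and smooth muscle, 12 of 12 had a higher mean in A+/G+, 6 passed, and the sums were 19573 to 21879 against 6132 to 7067. Pdgfrb and Rgs5 were detected on all 6 arrays, Kcnj8 on 4 and Myh11 on none. Multiciliated and ependymal markers summed to 13008 to 20926 in A+/G+ and 2218 to 6901 in A-/G+ (6 of 8 passed), Purkinje cell markers to 5252 to 13965 and 1753 to 2144 (5 of 9), and oligodendrocyte precursor markers to 14176 to 17553 and 3221 to 4986 (3 of 7). The 8 Bergmann glia markers, with Gdf10, Gria1 and Gria4 first, went the other way and all passed, with sums of 5285 to 6336 against 20996 to 29293. The study already listed Gria1, Npy, Mybpc1, Gdf10 and Wif1 as higher in A-/G+ on these same arrays. The count for this list is thus not independent of these data. Of the 10 astroglia markers 5 passed with A+/G+ above and 1 with A-/G+ above, and the sums overlapped (208610 to 222530 and 148320 to 236740). Atp1b2 is among those that passed with A+/G+ above, and as the gene of the ACSA-2 antigen it is not independent of the sort. Slc1a3, the gene of GLAST, is also on this list and did not pass. Erythroid markers summed to 13074 to 23650 against 3444 to 11060 with 0 of 7 past the limit. None of the 15 microglia and macrophage markers and 10 choroid plexus markers passed either. In the granule neuron lineage, 1 of 10 markers passed, Pax6, which was higher in A-/G+ and was named after its values were seen. The part of these cell types in the differences of Igf1, Igfbp2, Igfbp3 and Igfbp4 was not tested.

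**Figure D3:**
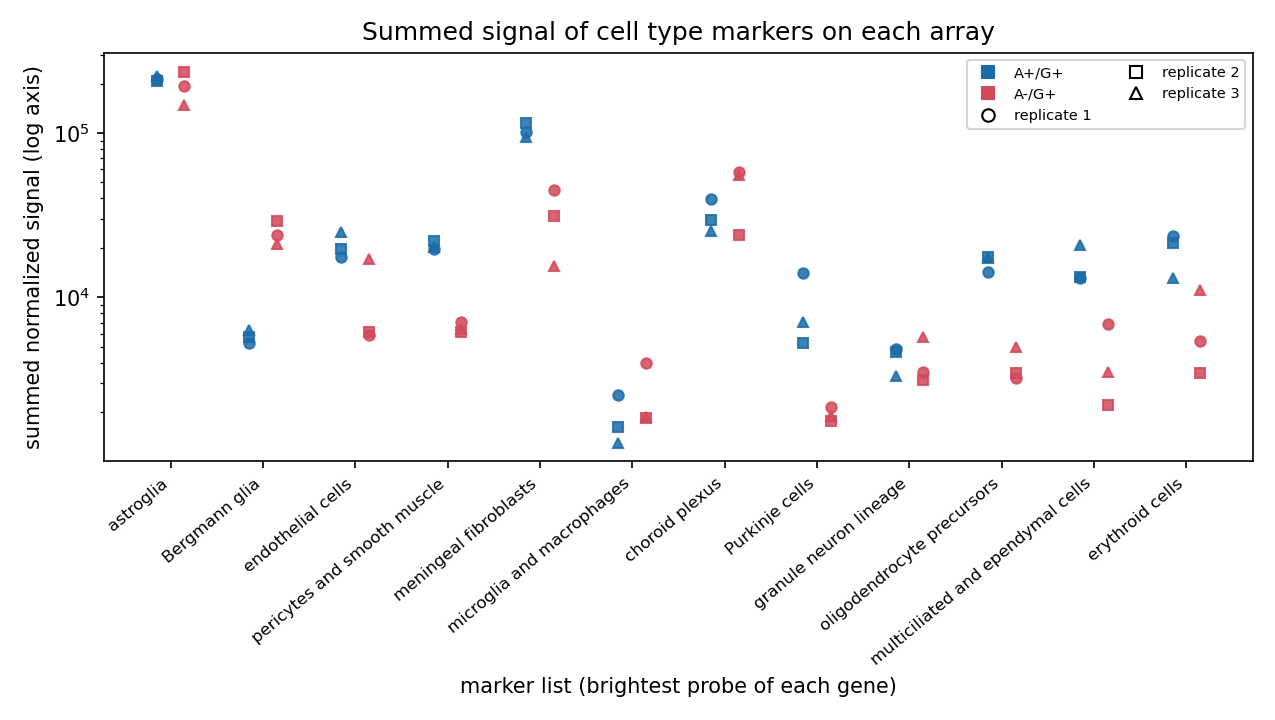
Sum of the normalized signals of the brightest probes of each marker list (log y axis) on every array, A+/G+ in blue and A-/G+ in red, with marker shapes for replicates 1 to 3. Signals were added on the linear scale, so the brightest markers of a list weigh most. Meningeal fibroblast sums are 94178 to 115380 in A+/G+ and 15554 to 44732 in A-/G+, Bergmann glia sums lie higher in A-/G+, and replicate 3 of A-/G+ has an endothelial sum of 16974.

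The 250 bases before the transcription start of Igf1, Igfbp2, Igfbp3 and Igfbp4 are shown because these genes were higher in A+/G+ together. They are RefSeq sequence of GRCm38.p6, a different build from that of the probes, in the direction of the gene, and all 9 genes have an entry. Capitals mark matches, on either strand, to 3 motifs. The motif of the GC box was searched as GGGCGG. The motif of the CCAAT box was searched as its name spells it. The motif of the TATA box was searched as TATAAA.
Igf1, chr10:87860861-87861110, plus strand: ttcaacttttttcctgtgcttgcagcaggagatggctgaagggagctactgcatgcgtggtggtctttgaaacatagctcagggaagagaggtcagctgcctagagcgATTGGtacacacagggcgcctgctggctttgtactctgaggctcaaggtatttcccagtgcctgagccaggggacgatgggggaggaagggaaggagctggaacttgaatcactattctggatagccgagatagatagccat
Igfbp2, chr1:72824230-72824479, plus strand: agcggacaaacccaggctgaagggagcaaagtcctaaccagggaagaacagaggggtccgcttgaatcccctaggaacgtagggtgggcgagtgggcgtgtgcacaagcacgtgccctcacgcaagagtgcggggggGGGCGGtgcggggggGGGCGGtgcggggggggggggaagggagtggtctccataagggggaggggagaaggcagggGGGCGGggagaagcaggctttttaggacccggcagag
Igfbp3, chr11:7213924-7214173, minus strand: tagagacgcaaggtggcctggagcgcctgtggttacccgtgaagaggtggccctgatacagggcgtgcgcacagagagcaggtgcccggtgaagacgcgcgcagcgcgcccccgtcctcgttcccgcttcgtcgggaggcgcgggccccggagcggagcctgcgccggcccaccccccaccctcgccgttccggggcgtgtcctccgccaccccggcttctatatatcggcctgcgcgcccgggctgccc
Igfbp4, chr11:99040994-99041243, plus strand: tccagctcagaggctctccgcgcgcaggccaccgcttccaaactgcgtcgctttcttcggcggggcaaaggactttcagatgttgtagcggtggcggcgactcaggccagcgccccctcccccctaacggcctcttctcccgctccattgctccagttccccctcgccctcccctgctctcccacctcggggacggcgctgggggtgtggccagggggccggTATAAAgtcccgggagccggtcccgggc
The Igfbp2 window, the first of its 2 starts, holds 3 GC boxes, which begin 113, 98 and 37 bases before the start. The Igf1 window has 1 CCAAT box on the opposite strand, 142 bases before the start, and the Igfbp4 window has 1 TATA box, 28 bases before it. In the Igfbp3 window these letters were not found, and no motif of the 3 occurs in more than 1 of the 4 windows. Of 32851 windows of this length in RefSeq, 32.7% hold a GC box, 33.8% a CCAAT box and 12.4% a TATA box. A match here is a description of the letters, not a site in use.

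The IGF pathway around these genes was read from lists of 94 genes, of which 90 were on the array by symbol. Of these, 10 (11.1%) passed with A+/G+ above and 7 (7.78%) with A-/G+ above, against 7.48% and 5.12% of all gene symbols. The median difference over the 90 genes was 0.00, and 63 of them were detected on all 6 arrays. Both shares lie near the background.

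Igf2, the other ligand of IGF1R, read 10.26, 10.49 and 10.28 in A+/G+ and 9.14, 8.02 and 7.88 in A-/G+. The fractions did not overlap, and the difference was 2.00 (standard error 0.37, adjusted p = 0.0392, limma), or 3.99-fold. Within A-/G+ its order, highest in replicate 1 and lowest in replicate 3, was that of the summed meningeal fibroblast markers on the same arrays (44732, 31072 and 15554). This correspondence over 3 arrays was picked from all the marker lists, and its meaning was not tested. Within A+/G+ the order differed, as Igf2 was lowest in replicate 1 and the meningeal sums (101120, 115380 and 94178) in replicate 3. Of the receptors outside the 9 genes, the insulin receptor Insr did not pass, with a difference of -0.21 (adjusted p = 0.517, limma). The orphan receptor of the insulin receptor family, Insrr, read 6.09, 7.44 and 7.03 in A+/G+ and was detected on no A-/G+ array. After quantile normalization this gives a bound of at least 3.88-fold higher signal in A+/G+ (adjusted p = 0.0478, limma). Such a bound sets the mean of A+/G+ against the dimmest detected signal of each A-/G+ array, or the probe's own where higher. On the log2 scale it is 1.95 for Insrr, and with normexp background correction the difference was smaller, 1.15 (adjusted p = 0.0448, limma). Insrr did not pass after the 75th percentile shift (adjusted p = 0.0501, limma) or in the methods' t-test (adjusted p = 0.0999). Ghr, the growth hormone receptor, differed by 0.69 with A+/G+ above (adjusted p = 0.0269, limma).

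The genes that act on the binding proteins differed in both directions. Pappa, whose protease cuts IGFBP4 and IGFBP5, read 3.85, 3.78 and 3.91 in A+/G+ and 6.16, 6.56 and 5.42 in A-/G+. The fractions did not overlap, and the difference was -2.20 (adjusted p = 0.0206, limma). The Pappa probe was detected on 2 A+/G+ arrays and on all 3 A-/G+ arrays, so the size of its difference rests on A+/G+ signals near background. With normexp background correction the Pappa difference was -0.805 (adjusted p = 0.0162, limma). Pappa did not pass in the methods' t-test (adjusted p = 0.0544). Stc2, which encodes a stanniocalcin that blocks this protease, read 6.48, 6.63 and 6.56 in A+/G+ and was at least 3.15-fold higher there (adjusted p = 0.00747, limma). Adam12, a metalloprotease that can cut IGFBP3 and IGFBP5, read 5.98, 6.01 and 5.67 in A+/G+, at least 1.98-fold above A-/G+ (adjusted p = 0.0294, limma). On the log2 scale these bounds are 1.66 for Stc2 and 0.99 for Adam12. With normexp background correction the differences were smaller than that, 1.09 and 0.95. Mmp9 read 7.77, 7.75 and 7.88 in A+/G+ and 2.61, 2.28 and 5.31 in A-/G+, where 1 array detected it (difference 4.40, adjusted p = 0.0454, limma). Htra1, a secreted protease with a domain like that of the binding proteins, was bright in both fractions, at 13.82, 13.74 and 13.86 against 11.63, 11.21 and 10.17 (difference 2.80, adjusted p = 0.0209, limma). Igfbp1, which lies beside Igfbp3 on chromosome 11, was detected on 2 of the A+/G+ arrays and on none of A-/G+. Its measured means were 1.57 apart (adjusted p = 0.0425, limma), and no fold is given. Igfbp1 passed in only 3 of 13 alternatives. Its difference was 0.54 after the 75th percentile shift (adjusted p = 0.278, limma) and 0.26 with normexp background correction (adjusted p = 0.082, limma).

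Of the 3 proteins that bind Igf2 mRNA, Igf2bp1 and Igf2bp3 were higher in A-/G+, by 0.99 and 0.91 (adjusted p = 0.00516 and 0.0381, limma), and Igf2bp2 had a difference of -0.54 (adjusted p = 0.0857). Igf2bp1 read 6.03, 5.99 and 5.96 in A+/G+ and 7.07, 6.88 and 6.99 in A-/G+. Inside the cell, Foxo6, a FOXO transcription factor, differed by 1.06 with A+/G+ above (adjusted p = 0.0341, limma). The remaining 5 genes past the limit are named although their differences were smaller, a choice made after their values were seen. Shc1, an adaptor of the RAS branch, was higher in A+/G+ by 0.68, while Irs1 and Grb10, which bind the activated receptors, the kinase Akt2 and the translation repressor Eif4ebp2 had differences between -0.69 and -0.53. None of the 9 measured genes of the RAS and MAPK arm passed. With each array left out in turn, Stc2 and Igf2bp1 kept an adjusted p within the limit in all 6 fits. Mmp9, Adam12, Htra1, Insrr, Pappa, Igf2, Igfbp1, Foxo6, Igf2bp3 and Ghr each lost it when any one A+/G+ array was left out, with a highest adjusted p between 0.0900 and 0.164, and all of these but Adam12 also lost it without at least 1 A-/G+ array.

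**Figure D4:**
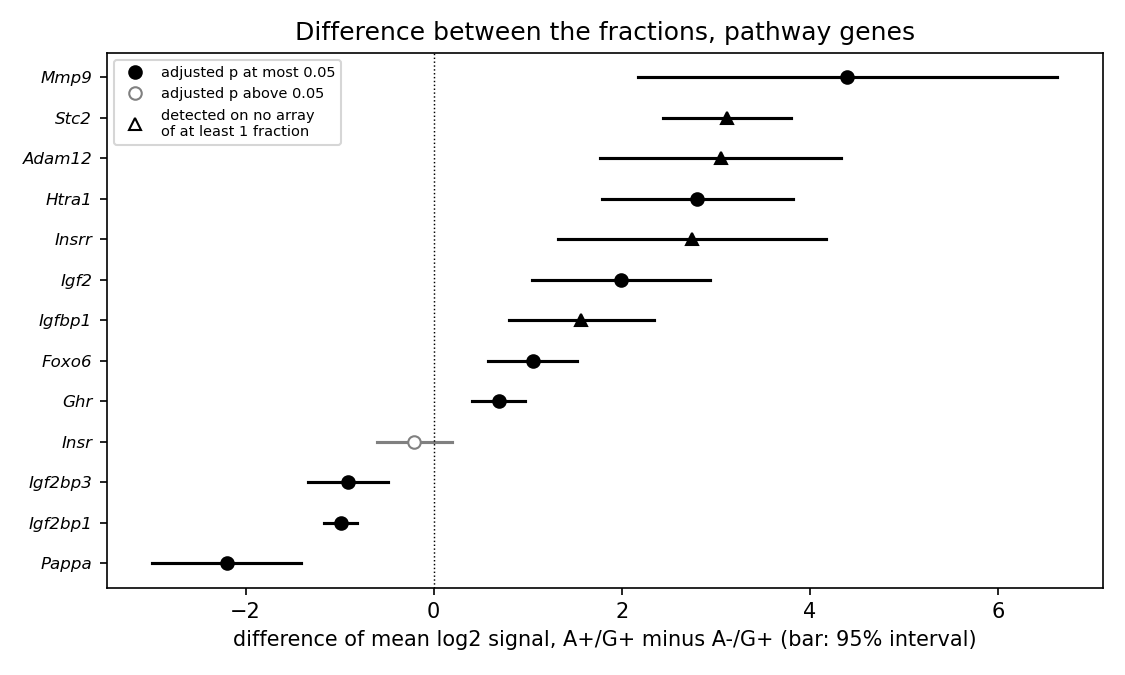
Difference of mean log2 signal, A+/G+ minus A-/G+ (x axis), with 95% intervals from limma for 13 pathway genes, filled where the adjusted p is at most 0.05. Triangles mark probes that were detected on no array of 1 fraction, where the difference is set against background, as for Stc2, while circles mark the others, such as Htra1 at 2.80, Pappa at -2.20 and Insr, whose interval spans 0.

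Of the 9 genes, Igfbp2 and Igfbp4 passed the test and were detected on all 6 arrays, and Igfbp2 had the larger difference. The 5 genes with the pattern most like that of Igfbp2 over the 6 arrays, of 2142 that also differed and were detected on all arrays, were Gstt2, Plac9a, Ak3, Tmem37 and Amotl2, with Pearson's r between 0.9955 and 0.9969. The points share the 2 slides and the 2 fractions, and the genes were picked for this likeness. Their means were higher in A+/G+ by 0.75 for Ak3 to 1.93 for Plac9a.

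**Figure D5:**
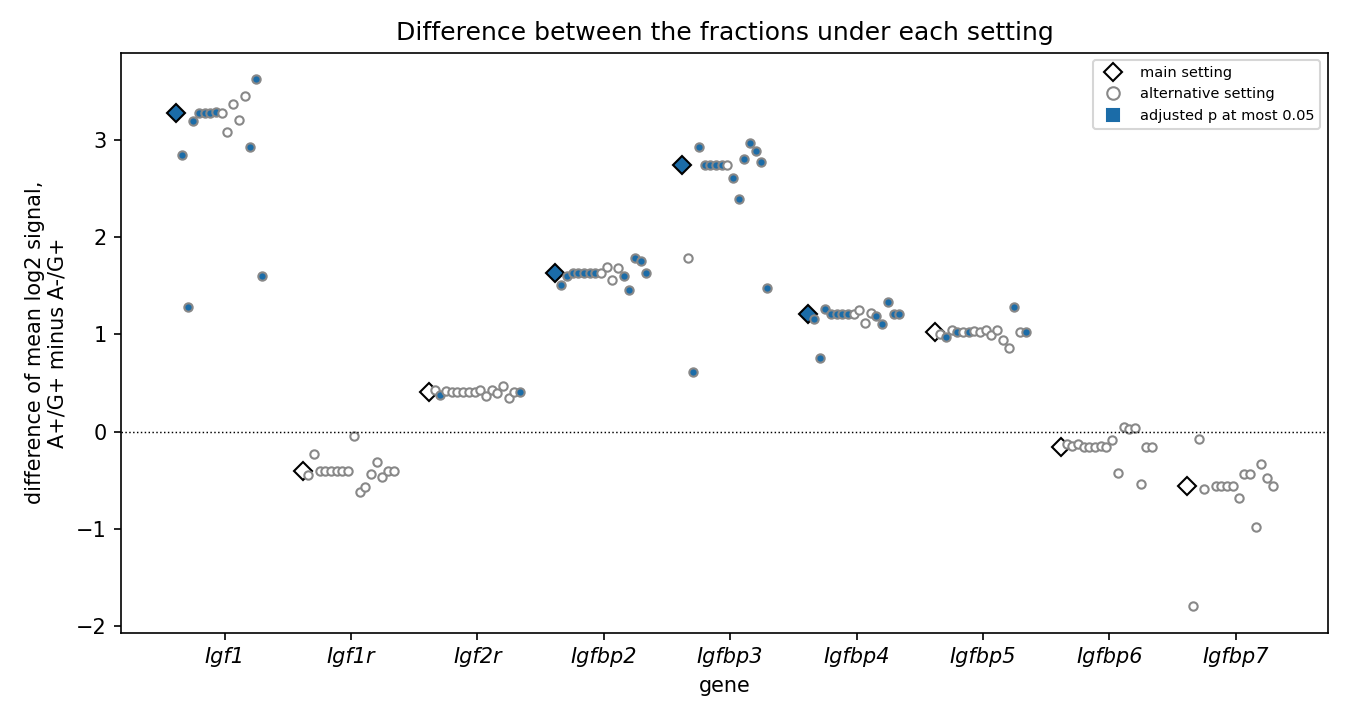
Difference of mean log2 signal, A+/G+ minus A-/G+ (y axis), for each of the 9 genes under the main setting (diamonds) and each alternative (circles), filled where the adjusted p is at most 0.05. Igf1, Igfbp2, Igfbp3, Igfbp4, Igfbp5 and Igf2r lie above 0 in each setting, and Igf1 ranges from 1.28 to 3.63.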

How the data were processed

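Total RNA of 3 A+/G+ and 3 A-/G+ samples was amplified, labeled with Cy3 and hybridized to Agilent mouse arrays, 1 sample each. The authors deposited the intensity of each spot as processed by Agilent Feature Extraction 10.7.3.1, and a table of log2 values that the authors had quantile normalized, which was used as an alternative. The labels give postnatal days 1 to 3 and strain CD1, whereas the study's methods give days 0 and 1 and another background. Here the intensities were taken to log2 without control and outlier spots, quantile normalized and averaged over the spots of a probe, and all 55681 probes were compared with limma 3.58.1 in R 4.3.3 (Benjamini-Hochberg). The methods' t-test was run as an alternative. A gene is read from its probe with the highest mean over all arrays, and no filter on dim probes was applied. The members and gene lists were chosen with earlier results of these data known. Named are all members with every probe, Igf2, Insr, Igfbp1, the 12 pathway genes past the limit with the largest differences, the first 3 markers of a list where it bears on a result, and the 5 genes most like the member with the largest difference in each direction among those above background on all arrays, and none was in the direction of A-/G+. The fit was tested on simulated data. Other alternatives were a 75th percentile shift, normexp with an offset of 50, filters on dim probes, limma with trend and robust variance, inclusion of outlier spots, a block for the replicate number, each array left out, the mean of a gene's probes and a 2-fold limit. Samples are biological replicates per the labels.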

Additional observations from a re-analysis of the deposited data

How the results depend on the processing

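Of 140 comparisons of the 9 genes with an alternative, 118 kept their side of the limit, 15 fell short of it and 7 passed it, and none reversed a call. The 4 members higher in A+/G+ were 3 with the 75th percentile shift, 6 with normexp, 5 with trend and robust variance, and 1 to 5 with each array left out in turn. For all probes, the 75th percentile shift gave 1227 higher in A+/G+, and past both limits, the adjusted p and medians at least 4-fold apart, 938 higher in A-/G+. Normexp gave 234 and 48 past both limits, the filter to probes detected on all 6 arrays 247 higher in A+/G+, and a 2-fold limit 1797 and 1340. The methods' t-test gave 1351 and 1197, of which 487 and 121 past both limits. Pathway counts were 5 and 3 (75th percentile shift) and 2 and 2 (methods' t-test), and 11 (normexp) and 12 (all 6 arrays) for A-/G+. With each array left out, the probe counts ranged from 825 to 4469 and 409 to 4622, those past both limits from 328 to 1448 and 75 to 481, and the pathway counts from 1 to 13 and 1 to 10, where the lowest belong to fits without an A+/G+ array. With the replicate number as a block, 0 probes, 0 members and 0 pathway genes passed (smallest adjusted p = 0.063, limma), with 5354 and 6317 probes at an unadjusted p below 0.05 and 6 members higher in A+/G+. Deviations of same-numbered arrays correlated at 0.20, 0.11 and -0.11, and 2 of 6 arrays correlated best with their own number. These values show no sign that the numbers pair the samples. With 3 arrays per fraction they cannot exclude it, and the labels do not settle it. A fit with the slide as a block was not run, as it cannot be fitted when each fraction lay on 1 slide. The low signal over background of the A-/G+ arrays limits Igf1 and Igfbp3, and Igfbp7 was at background in both fractions.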

Other observations

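Other genes with an Igf symbol, chosen after their values were seen, included Igf2os, an antisense gene at the Igf2 locus, which read 9.87, 9.71 and 9.63 in A+/G+ and 8.59, 8.01 and 7.36 in A-/G+. The difference was 1.75 (adjusted p = 0.041, limma), and the fractions did not overlap. Igflr1, which encodes a receptor of the TNF receptor family, read 11.002, 10.92 and 11.01 in A+/G+ and 11.85, 11.79 and 11.67 in A-/G+ (difference -0.79, adjusted p = 0.00797, limma). Igfl3 and Igfn1 were detected on no array. Among genes of the pathway that did not pass, Ddit4, an inhibitor of mTOR, read 13.26, 13.13 and 13.22 in A+/G+ and 10.97, 11.21 and 12.42 in A-/G+, and Mmp2 read 9.14, 9.46 and 9.21 against 8.41, 7.46 and 8.07. Neither overlapped between the fractions (adjusted p = 0.0756 and 0.0532, limma).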
